A study of Mus musculus with 25 samples.

Results

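A panel of 40 neuronal and synaptic transcripts was followed through FACS-sorted mouse microglia. The genes were taken as a list of symbols covering synapse, transmitter class, cytoskeleton and cell body, chosen with earlier results of these data known. All 40 were found among the 43411 genes of the count table, and 22 passed the filter on low counts that left 12908 genes for testing. RNA was sequenced from CD11b+ CD45med cells of 23 mice aged 3 months, 1 library per mouse, on a B6.129S6-Bin1tm2Gcp/J by FVB/N-Tg(Thy1-cre)1Vln/J background. WT mice were Bin1flox/wt without Cre (Thy1-Cre-, n = 6, 2 females and 4 males). Het-cKO mice carried the same single floxed allele with Thy1-Cre+ (n = 7, 4 females and 3 males), and Homo-cKO mice were Bin1flox/flox with Thy1-Cre+ (n = 10, 5 females and 5 males). Every mouse thus carried at least 1 floxed Bin1 allele, and the WT controls were not free of it. Cre was driven by the Thy1 promoter, which is active in neurons, so the cells meant to recombine are neurons and not the cells that were sorted. All WT and Het-cKO animals have numbers of the form 02xx, whereas 6 Homo-cKO animals are 03xx and 4 are 04xx, so genotype and number range cannot be told apart.

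Neurons release transmitter from vesicles that fuse at the presynaptic membrane through the SNARE proteins, among them SNAP25 and VAMP2, under the control of complexins and synaptotagmin. On the receiving side, neurogranin and the CaMKII kinases handle calcium and calmodulin beneath glutamate receptors, and neurofilaments, tubulins and stathmins build and remodel the axon and dendrites. Microglia are the resident macrophages of the brain. They contact and engulf synaptic material, and a sorted microglial preparation can also hold neuronal fragments. In bulk RNA, fewer neuronal cells or fragments and less RNA per cell cannot be told apart, and a transcript carried inside a microglial cell is counted like one that the cell makes.

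Levels are given as CPM (counts scaled to a common library total) on library totals scaled by TMM. Total counts ranged from 10812969 to 16734846 per mouse. The targeted gene, Bin1, had a median of 689 CPM in WT mice (600 to 814), 691 in Het-cKO mice (629 to 747) and 469 in Homo-cKO mice (327.6 to 672.7), and it was lower in Homo-cKO than in WT mice (log2 fold change -0.60, adjusted p = 0.0017 by edgeR's quasi-likelihood test). Microglial markers were abundant, since the 16 genes of that list summed to between 72730 and 113200 CPM in each mouse. In a set of 4 Homo-cKO mice (F1, F2, M1 and M2), the immediate-early genes summed to between 8658 and 13050 CPM, against at most 997 CPM in the other 19 mice.

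The promoters of 3 members that were lower in Homo-cKO mice are shown because these genes stand for the receiving side (Nrgn), a neuronal vesicle membrane protein (Nrsn1) and the presynaptic vesicle (Syn1). Each run is the 250 bases before the RefSeq start on GRCm38.p6, written 5′ to 3′ on the gene's strand, which is the minus strand for all of them. Capitals mark the motifs searched on both strands, namely E-box CANNTG, GC box GGGCGG, CRE core TGACG and the left arm of the RE1 element CAGCACC, the site of the neuronal gene repressor REST. The Nrgn run lies at chr9:37552746-37552995, the Nrsn1 run at chr13:25269997-25270246 and the Syn1 run at chrX:20920919-20921168. In the GENCODE models used for gene coordinates, these genes start at 37552904, 25270502 and 20921004, in the same order. The RefSeq and GENCODE starts thus differ. The Nrsn1 run lies wholly inside the GENCODE gene, and the Nrgn and Syn1 runs lie partly inside theirs.
Nrgn: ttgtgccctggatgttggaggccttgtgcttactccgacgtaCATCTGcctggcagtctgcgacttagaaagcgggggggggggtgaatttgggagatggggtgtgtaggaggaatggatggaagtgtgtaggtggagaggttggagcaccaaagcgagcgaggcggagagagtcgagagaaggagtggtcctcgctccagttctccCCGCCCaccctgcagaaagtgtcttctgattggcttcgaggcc
Nrsn1: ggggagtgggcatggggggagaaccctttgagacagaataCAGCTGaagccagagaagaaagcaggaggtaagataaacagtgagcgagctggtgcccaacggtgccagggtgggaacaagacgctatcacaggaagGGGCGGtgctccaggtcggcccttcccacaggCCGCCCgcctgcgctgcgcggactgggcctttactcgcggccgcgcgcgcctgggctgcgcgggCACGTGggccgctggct
Syn1: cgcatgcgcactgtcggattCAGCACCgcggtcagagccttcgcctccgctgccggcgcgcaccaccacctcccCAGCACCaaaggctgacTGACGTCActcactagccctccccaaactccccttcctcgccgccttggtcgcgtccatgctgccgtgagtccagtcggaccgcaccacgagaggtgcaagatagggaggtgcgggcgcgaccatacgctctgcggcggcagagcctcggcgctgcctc
In the Nrgn run the capitals are 1 E-box and 1 GC box, and in the Nrsn1 run they are 2 E-boxes and 2 GC boxes. In the Syn1 run they are 2 RE1 left arms and a CRE core read on each strand of 1 palindrome. RefSeq promoters were matched for 30 of the 40 members. The RE1 left arm was present in 2 of these 30 (Syn1 and Tubb3), and in 5.7% of all 27025 promoters of this length. The right arm GGACAG was present in 9 of 30 members, against 18.7% of all promoters. The CRE core was found in 8 of 30 members (17.9% of all promoters), the E-box in 14 of 30 (66.0%), the GC box in 18 of 30 (32.9%) and TATAAA in 3 of 30 (13.0%). Bases G and C made up a median of 62.6% of the members' runs and 52.0% of all runs. These are matches of letters, not sites of binding.

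Most members had a group median below 1 CPM in each genotype, and 3 were abundant. At a threshold of 1 CPM for the group median, 18 of 40 members were present in WT mice, 16 in Het-cKO mice and 7 in Homo-cKO mice. Single WT mice had between 12 and 24 members at or above 1 CPM, Het-cKO mice between 15 and 19, and Homo-cKO mice between 6 and 11. Homo-cKO mice thus had fewer members at this level than any WT or Het-cKO mouse. Per kilobase of exon, the WT mean level was 268 CPM for Basp1, 22.1 for Vamp2 and 11.5 for Ncdn. The next on that scale were Nrgn at 1.76, Snap25 at 1.66, Stmn3 at 1.08, Syp at 1.06 and Nrsn1 at 1.04 CPM per kilobase.

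Basp1 encodes a growth-cone membrane protein, Vamp2 a vesicle SNARE and Ncdn a neuronal cytosolic protein. The sum over all 40 members was 0.915 times as high in Homo-cKO as in WT mice, and these 3 genes made up most of it. The split of these 3 from the rest was chosen after their values were seen. Summed over the other 37 members, the WT mice ranged from 37.8 to 92.7 CPM (median 49.8), the Het-cKO mice from 39.0 to 64.8 and the Homo-cKO mice from 14.2 to 28.0 (median 20.0). Each of the 10 Homo-cKO mice was below each WT and Het-cKO mouse in this sum. The Homo-cKO mean was 0.357 times the WT mean, and the Het-cKO mean was 0.912 times it. The highest WT mice were F1 and M4, and without both of them the Homo-cKO mean was 0.471 times the WT mean.

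**Figure D1:**
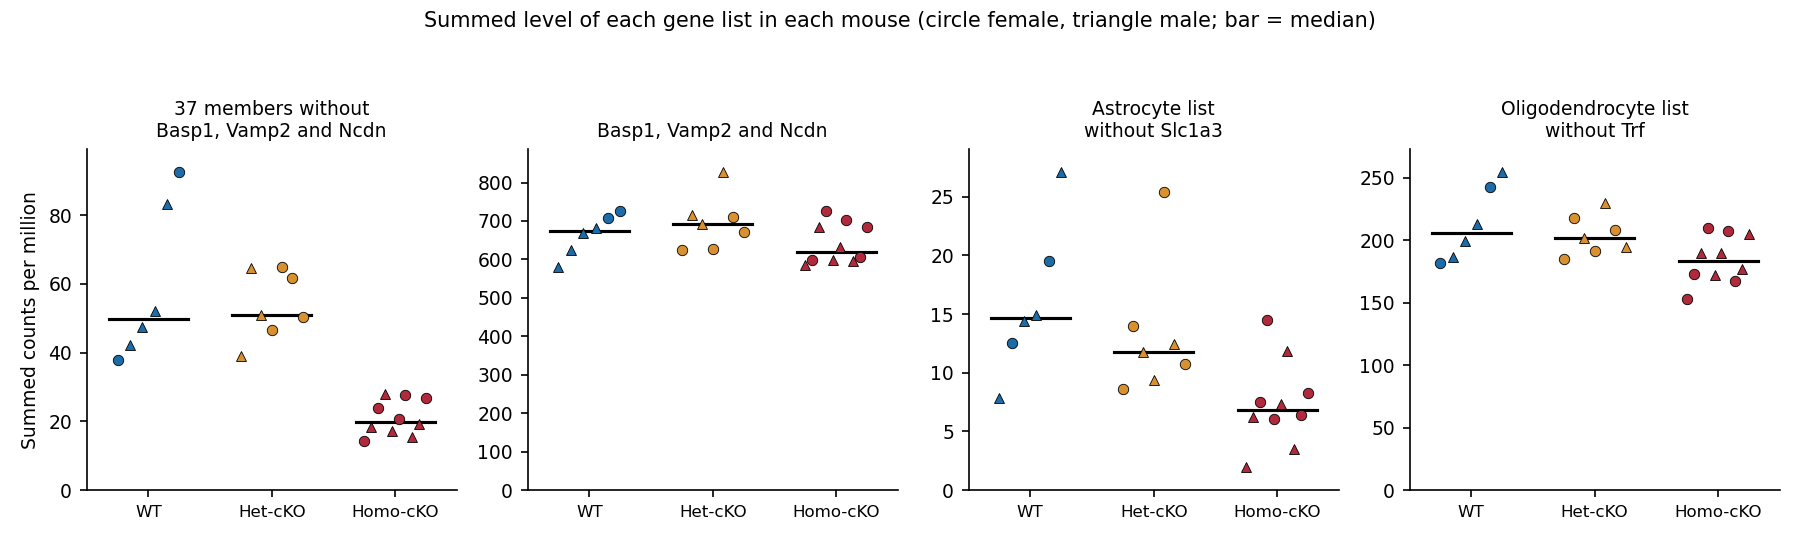
Summed CPM of 4 gene groups (y axis, linear from 0) in each mouse by genotype (x axis), with females as circles, males as triangles and the median as a bar. In the left panel the 10 Homo-cKO mice lie between 14.2 and 28.0 CPM, below all other mice, whereas the groups overlap for Basp1, Vamp2 and Ncdn. In the astrocyte list without Slc1a3, 7 of 10 Homo-cKO mice lie below all other mice, and in the oligodendrocyte list without Trf 5 of 10 do.

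In Homo-cKO against WT mice, 13 of the 22 members tested were called lower and none higher, a call being an adjusted p under 0.05 with more than a 1.5-fold difference. Over all 12908 genes, 1.75% were called lower and 1.65% higher under the same rule. The members' median log2 fold change was -1.88, and 21 of 22 were negative, while the median of all genes tested was 0.01. Members reach the test partly through their level in WT and Het-cKO mice, so these counts describe the members tested and not all 40. The members were also chosen with earlier results of these data known. Their share called thus stands beside that of all genes as a description, and an excess was not tested. Without a fold limit the count of members was the same, and 7.09% of all genes were then called lower. The 10 Homo-cKO mice were all below the 6 WT mice for 3 of the 22 members, Snap25, Nrgn and Cplx2, and for 1.14% of all genes tested. The same 3 members were also below all 7 Het-cKO mice, as were 0.418% of all genes tested.

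The count of calls rested largely on 1 WT mouse. WT F1 was the highest WT mouse in 11 of the 19 tested members other than Basp1, Vamp2 and Ncdn, and WT M4 was the highest in 6 of them. Without WT F1, 6 of the 24 members then tested were called, where 364 of 13051 genes were called in all. Snap25, Nrgn, Cplx2, Nrsn1 and Uchl1 kept their calls, Ina passed the filter and was called, and Syn1, Syp, Cplx1, Gad1, Nefl, Stmn3, Chn1 and Eno2 lost theirs. All 8 of those had the same sign, with adjusted p-values from 0.058 to 0.13. Their log2 fold changes without WT F1 ran from -2.73 for Gad1 (-3.13 with it) through -2.43 for Nefl (-2.74 with it) and -1.88 for Syn1 (-2.34 with it) to -0.78 for Syp (-0.82 with it). Without both WT F1 and WT M4, 6 of 25 members tested were called, where 255 of 13270 genes were. Without the 4 Homo-cKO mice with high immediate-early genes, 8 of 22 members were called, where 321 of 12735 genes were.

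**Figure D2:**
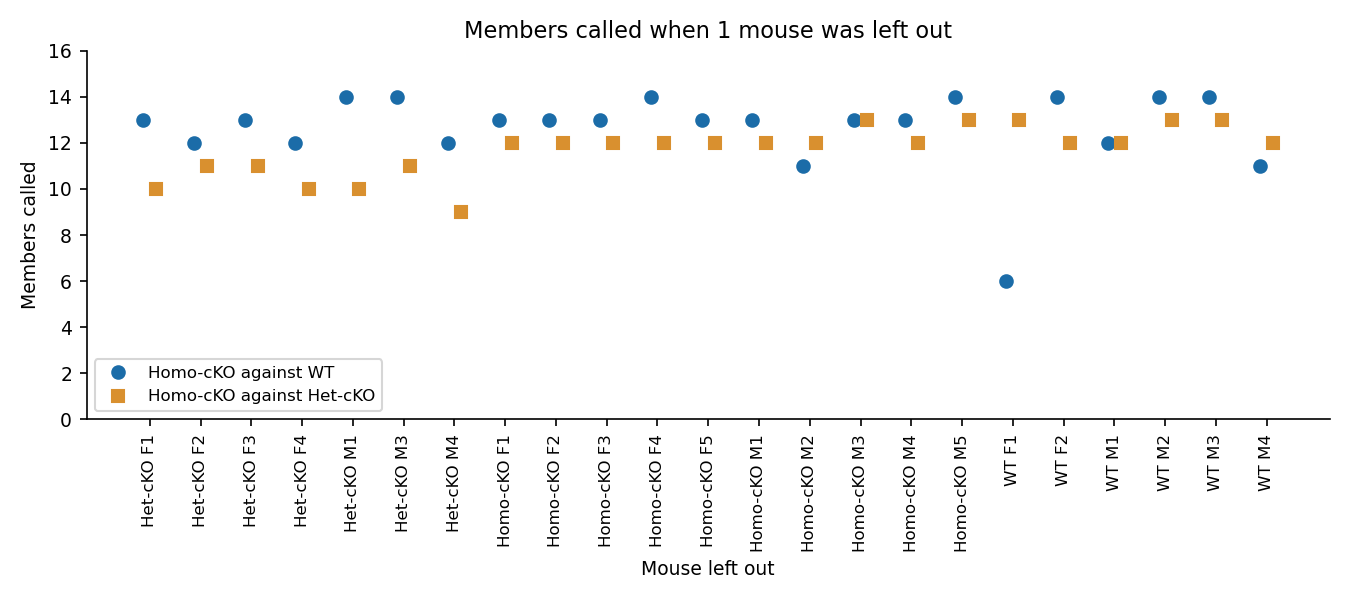
Number of members called (y axis) in edgeR fits that each left out the mouse named on the x axis, for Homo-cKO against WT (circles) and Homo-cKO against Het-cKO (squares). The circles lie between 11 and 14 except at 6 without WT F1, and the squares lie between 9 and 13.

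Among presynaptic members, 5 of the 6 tested were called lower. Snap25 (ENSMUSG00000027273.11, GRCm38 chr2:136713453-136782428), which encodes the SNARE protein of the presynaptic membrane, ranged from 4.40 to 19.1 CPM in WT mice with a median of 10.7. It ranged from 4.75 to 17.6 CPM in Het-cKO mice (median 9.90) and from 0.779 to 3.54 CPM in Homo-cKO mice (median 1.70). No Homo-cKO mouse reached the lowest mouse of either other group. The log2 fold change was -2.52 ± 0.35 (SE), or 5.74-fold lower, with an adjusted p of 9e-05 by edgeR, and it lay between -2.72 and -2.21 with any 1 mouse left out.

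Cplx2 (chr13:54371349-54383917), a complexin that binds the assembled SNARE complex, was the member with the largest fitted change and one of the least abundant. It had 54 counts over the 6 WT libraries, 48 over the 7 Het-cKO libraries and 4 over the 10 Homo-cKO libraries, 6 of which had none. In CPM, it ranged from 0.221 to 1.25 in WT, from 0.0852 to 0.917 in Het-cKO and from 0 to 0.0731 in Homo-cKO mice (log2 fold change -4.23 ± 0.67, adjusted p = 0.00035 by edgeR). Homo-cKO mice lay below WT mice without overlap. Against Het-cKO mice the separation rested on library scaling, since Het-cKO M1 had 1 count and so did each of 4 Homo-cKO mice. A gene of so few counts did not pass a stricter filter of 1 CPM in 6 mice. Its relative Cplx1 was lower by 2.18 ± 0.50 on the log2 scale (adjusted p = 0.0058 by edgeR), with 7 of 10 Homo-cKO mice below all WT mice.

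Syn1, a protein that tethers vesicles to one another and to actin, ranged from 0.660 to 4.81 CPM in WT mice, with its median at 1.15. It ranged from 0.767 to 4.12 CPM in Het-cKO mice and from 0 to 0.741 CPM in Homo-cKO mice, 3 of which had no count. Its log2 fold change was -2.34 ± 0.57 (adjusted p = 0.0086 by edgeR), and 9 of 10 Homo-cKO mice were below all WT mice. Syp, an integral protein of the vesicle membrane, fell less, with medians of 5.39 CPM in WT, 6.17 in Het-cKO and 3.08 in Homo-cKO mice (log2 fold change -0.82 ± 0.23, adjusted p = 0.021 by edgeR). Of the exon bases of Syp, 16.8% overlap the opposite-strand gene Gm14703, and the library kit does not mark strand. Vamp2, the vesicle partner of SNAP25, did not pass the test, with WT mice between 73.1 and 101 CPM and Homo-cKO mice between 67.4 and 104 CPM (log2 fold change 0.04 ± 0.09, adjusted p = 0.80 by edgeR).

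The remaining presynaptic members had too few counts. Sncb (beta-synuclein) had a median of 0.491 CPM in WT and 0.0735 CPM in Homo-cKO mice, and Syt1, the calcium sensor of release, had 4 counts over the WT libraries, 63 over the Het-cKO libraries and 11 over the Homo-cKO libraries. The Syt1 counts thus stood apart in Het-cKO rather than WT mice, with the highest Het-cKO mouse at 1.44 CPM.

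**Figure D3:**
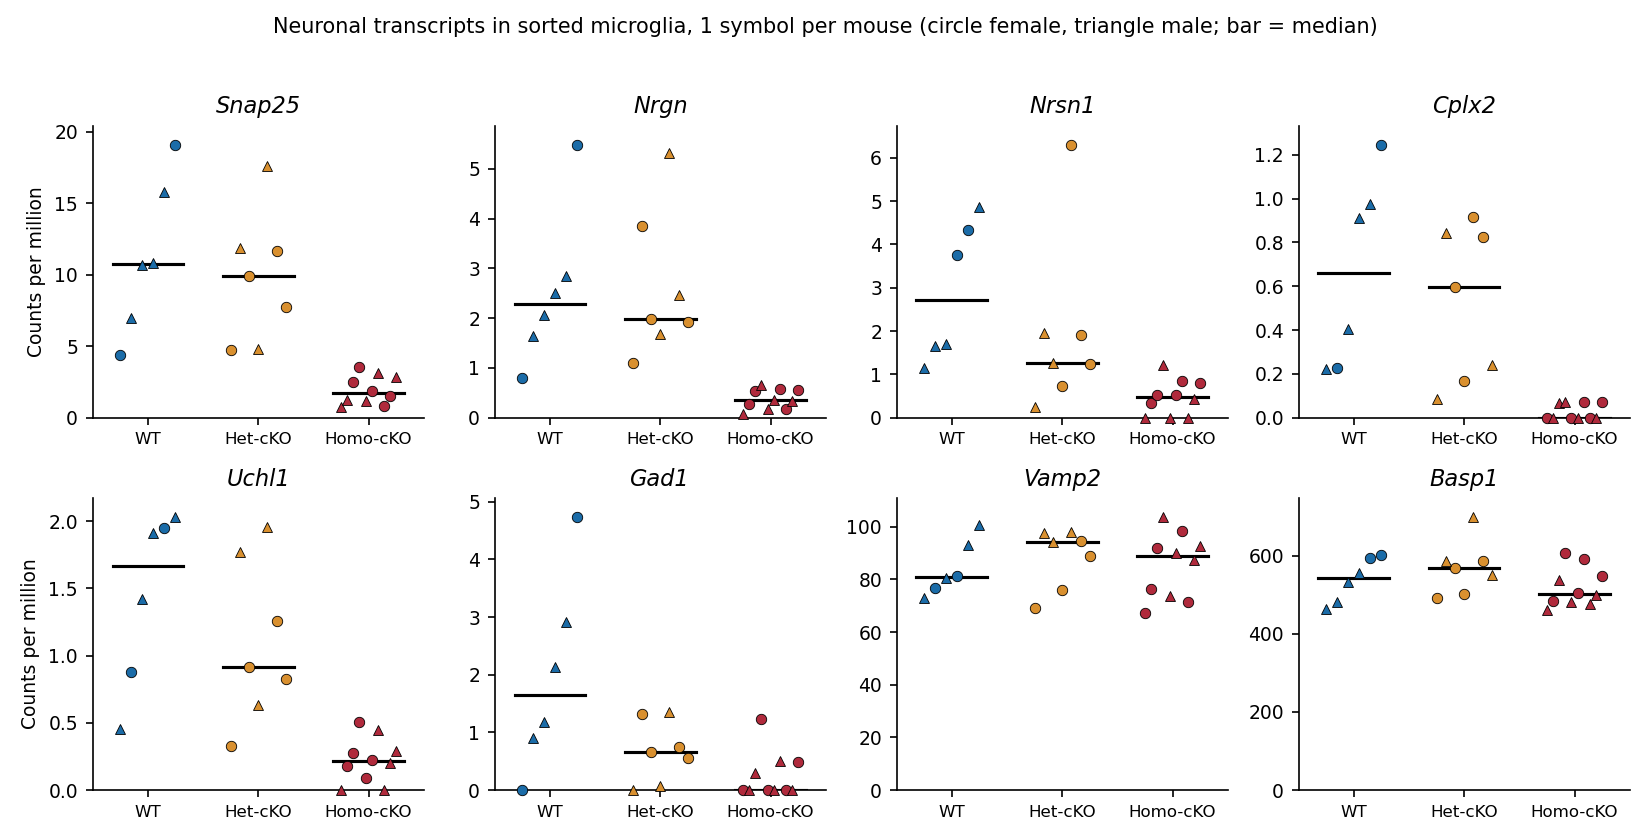
CPM (y axis, linear from 0, its own scale in each panel) of 8 members in each mouse by genotype (x axis), with females as circles, males as triangles and the median as a bar. Snap25, Nrgn and Cplx2 show no overlap of Homo-cKO with the other groups, Nrsn1, Uchl1 and Gad1 overlap in part, and Vamp2 and Basp1 overlap throughout.

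Among postsynaptic members, 1 of the 3 tested was called lower. Nrgn (ENSMUSG00000053310.9, chr9:37544492-37552904, promoter shown above) encodes neurogranin, a calmodulin-binding protein of excitatory forebrain neurons. It ranged from 0.807 to 5.48 CPM in WT mice (median 2.28), from 1.10 to 5.32 CPM in Het-cKO mice (median 1.99) and from 0.0727 to 0.666 CPM in Homo-cKO mice (median 0.351). Homo-cKO mice did not overlap either other group, whereas WT and Het-cKO mice overlapped each other. The log2 fold change against WT was -2.76 ± 0.42, with an adjusted p of 0.00028 by edgeR. The lowest WT value, 0.807 CPM in F2, lay close to the highest Homo-cKO value, 0.666 CPM in M5.

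The CaMKII subunits did not follow Nrgn past the threshold. Camk2a had medians of 3.97, 4.52 and 2.61 CPM in WT, Het-cKO and Homo-cKO mice (log2 fold change against WT -0.56 ± 0.25, adjusted p = 0.14 by edgeR). Camk2b spread widely within Homo-cKO mice, from 0.871 CPM in F5 to 13.1 CPM in F3, whereas WT mice lay between 2.35 and 8.86 CPM. Its log2 fold change was -0.40 ± 0.45, with an adjusted p of 0.62 by edgeR. In the 4 Homo-cKO mice of the 04xx range alone, Camk2b ranged from 0.871 to 3.22 CPM and was called lower (adjusted p = 0.016 by edgeR), while in the 6 mice of the 03xx range alone the adjusted p was 0.94. The glutamate receptor subunits were scarce in every group, with WT medians of 0.296 CPM for Gria2, 0.0706 for Grin1 and 0 for Grin2b, which had 3 counts over the WT libraries and none over the Homo-cKO libraries.

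Of the markers of transmitter class, only Gad1 had enough counts to be tested. Gad1 makes GABA in inhibitory neurons, and it ranged from 0 to 4.73 CPM in WT mice (median 1.65), from 0 to 1.35 CPM in Het-cKO mice (median 0.667) and from 0 to 1.23 CPM in Homo-cKO mice, 6 of which had no count. It was called lower against WT (log2 fold change -3.13 ± 0.87, adjusted p = 0.018 by edgeR), but not against Het-cKO mice (-1.36 ± 0.87, adjusted p = 0.27). The highest WT mice were F1 at 4.73 CPM, M4 at 2.91 CPM and M3 at 2.13 CPM. Without F1 the log2 fold change against WT was -2.73 and the adjusted p 0.11. No WT mouse other than F2 lacked Gad1, and Homo-cKO F5 at 1.23 CPM exceeded 3 of the WT mice. Gad2, the second GABA-synthesizing enzyme, had a count of 0 in all 23 mice, which allows up to 0.00958 CPM over all libraries together, a limit that covers counting error alone.

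Slc17a7 (VGLUT1), the vesicular glutamate transporter of cortical excitatory neurons, had medians of 0.186 CPM in WT, 0.0852 in Het-cKO and 0.0337 in Homo-cKO mice. The peptide genes of interneurons and striatal neurons were as scarce. Sst had medians of 0.114, 0.170 and 0 CPM in the same order, Npy of 0.0761, 0.159 and 0 CPM, and Penk of 0.0706, 0.275 and 0 CPM. In single mice they reached higher values, such as 1.29 CPM of Slc17a7 in WT M4 and 1.25 CPM of Penk in the highest Het-cKO mouse, while 3 counts in 1 library correspond to 0.18 to 0.266 CPM. With Gad1 the sole marker of transmitter class that was tested, a difference between excitatory and inhibitory neurons was not tested.

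Among members of the cytoskeleton and of neurite growth, 3 of the 5 tested were called lower. Nefl, the light neurofilament subunit, had medians of 1.09 CPM in WT, 1.51 in Het-cKO and 0.0365 in Homo-cKO mice (log2 fold change -2.74 ± 0.71, adjusted p = 0.012 by edgeR). Against Het-cKO mice the difference was -3.26 ± 0.67 (adjusted p = 0.0014). Part of Nefl, 32.8% of its exon bases, overlaps Nefm on the opposite strand, and Nefm itself had too few counts, with medians of 0.109, 0.422 and 0.0642 CPM. Stmn3, a tubulin-binding stathmin, was lower against WT by 2.06 ± 0.63 on the log2 scale (adjusted p = 0.031), and Chn1, a Rac GTPase-activating protein of neurons, by 1.89 ± 0.58 (adjusted p = 0.031), both by edgeR. Stmn3 was not called against Het-cKO mice (adjusted p = 0.13). Opposite-strand genes overlap 11.8% of the exon bases of Chn1.

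Stmn2, a growth-associated stathmin, did not pass, with medians of 0.673 CPM in WT and 0.440 CPM in Homo-cKO mice (adjusted p = 0.31 against WT by edgeR). Basp1 ranged from 464 to 601 CPM in WT, from 491 to 698 CPM in Het-cKO and from 460 to 606 CPM in Homo-cKO mice, and its log2 fold change was -0.06 ± 0.08 (adjusted p = 0.66 by edgeR). The standard errors of Basp1 and Vamp2 were the smallest of the members tested.

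Ina, the alpha-internexin subunit of the neurofilament, missed the filter in the full fit, but its values separated. It ranged from 0.456 to 1.39 CPM in WT mice, from 0.166 to 1.03 CPM in Het-cKO mice and from 0 to 0.266 CPM in Homo-cKO mice, all 10 of which were below all WT mice. The opposite-strand gene Nt5c2 overlaps 14.1% of the exon bases of Ina. Tubb3, the neuronal beta-tubulin, had WT and Homo-cKO medians of 0.525 and 0.0740 CPM, Map2 of 0.371 and 0.259 CPM, and Mapt (tau) of 0.488 and 0.328 CPM. No member of this trio was tested, and their groups overlapped.

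Among members of the soma, membrane and metabolism, 3 of the 7 tested were called lower. Nrsn1 (ENSMUSG00000048978.11, chr13:25252040-25270502, promoter shown above) encodes neurensin, a vesicle membrane protein of neurites. It ranged from 1.14 to 4.87 CPM in WT mice (median 2.72), from 0.254 to 6.30 CPM in Het-cKO mice (median 1.27) and from 0 to 1.21 CPM in Homo-cKO mice (median 0.483), 3 of which had no count. Here 9 of 10 Homo-cKO mice were below all WT mice but 3 of 10 were below all mice of both other groups, and Het-cKO mice spread across the range of the other genotypes. The log2 fold change was -2.77 ± 0.61 against WT (adjusted p = 0.0045 by edgeR) and -1.93 ± 0.60 against Het-cKO mice (adjusted p = 0.022).

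Uchl1, an abundant neuronal ubiquitin hydrolase, had medians of 1.67 CPM in WT, 0.917 in Het-cKO and 0.214 in Homo-cKO mice (log2 fold change -2.63 ± 0.52, adjusted p = 0.0020 by edgeR). In 9 of 10 Homo-cKO mice it was below all WT mice, and 18.1% of its exon bases overlap the opposite-strand gene Uchl1os. Eno2, the neuronal enolase, had medians of 2.74, 2.56 and 0.656 CPM in the same order (-1.87 ± 0.48, adjusted p = 0.012 by edgeR). In 3 of 10 Homo-cKO mice, F4 at 2.50 CPM, M5 at 1.48 CPM and M2 at 1.45 CPM, it reached into the WT range of 1.35 to 5.86 CPM.

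Of the other 4 tested in this class, Atp1b1, a subunit of the sodium pump, was near the threshold against WT (-1.86 ± 0.63, adjusted p = 0.051 by edgeR) and was called against Het-cKO mice (-1.79 ± 0.60, adjusted p = 0.033). The opposite-strand gene Nme7 overlaps 18.7% of the exon bases of Atp1b1. Olfm1, a secreted synaptic glycoprotein, had medians of 2.15 CPM in WT and 0.982 CPM in Homo-cKO mice (adjusted p = 0.11). Rbfox3 (NeuN), the splicing factor used to mark neuronal nuclei, had medians of 1.01 CPM in WT, 0.422 in Het-cKO and 0.483 in Homo-cKO mice, and it passed the test neither against WT (-0.89 ± 0.56, adjusted p = 0.32) nor against Het-cKO mice (0.50 ± 0.58, adjusted p = 0.57). Ncdn, with medians of 42.5 CPM in WT, 36.0 in Het-cKO and 38.0 in Homo-cKO mice, did not pass either (adjusted p = 0.30).

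The imprinted noncoding gene Meg3 and the imprinted gene Peg3 were not tested. Peg3 had 57 counts over the WT libraries, 41 over the Het-cKO libraries and 4 over the Homo-cKO libraries, and 9 of 10 Homo-cKO mice were below all WT mice. Meg3 had medians of 0.249 CPM in WT and 0.0794 CPM in Homo-cKO mice. Thy1, whose promoter drives the transgene, had no count in WT mice, 7 over the Het-cKO libraries and 1 over the Homo-cKO libraries, so its native transcript was near absent from these cells.

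**Figure D4:**
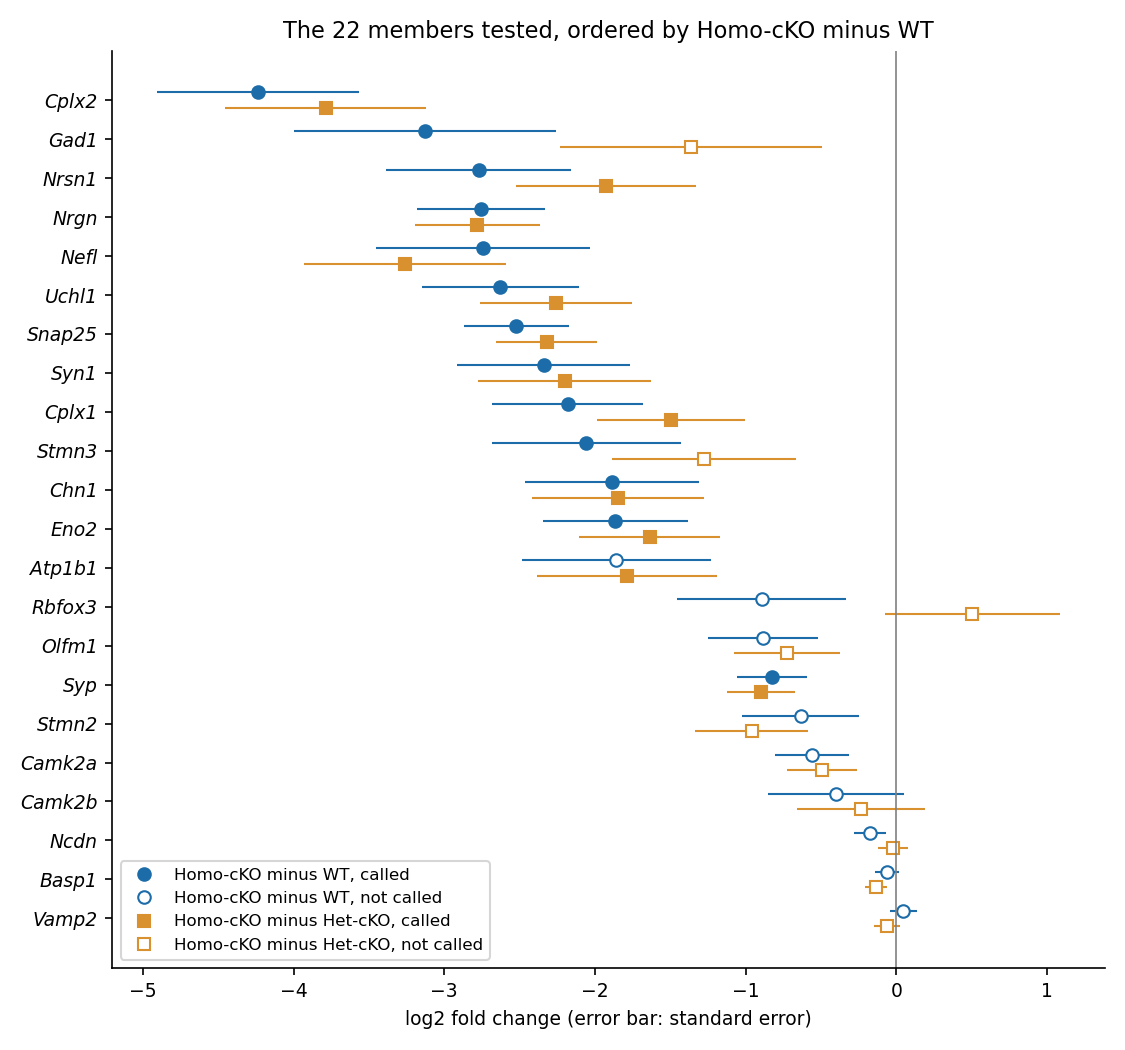
Fitted log2 fold changes (x axis) of the 22 members tested (y axis), Homo-cKO minus WT in circles and Homo-cKO minus Het-cKO in squares, with standard errors as bars and filled symbols for members that were called. Filled circles run from -4.23 for Cplx2 to -0.82 for Syp, and Vamp2, Basp1 and Ncdn lie near 0.

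Against Het-cKO mice, 12 of the 22 members were called lower in Homo-cKO mice and none higher, where 4.3% of all genes were called lower and 2.32% higher. Their median log2 fold change was -1.43. This comparison uses the same Homo-cKO mice as the comparison with WT mice, so the members' values stand beside the earlier ones and do not count as a second observation of those mice. Snap25 had -2.32 ± 0.34 (adjusted p = 6.6e-05), Nrgn -2.78 ± 0.41 (adjusted p = 8.3e-05), Cplx2 -3.79 ± 0.67 (adjusted p = 0.00037) and Uchl1 -2.26 ± 0.51 (adjusted p = 0.0026), each by edgeR. Gad1 and Stmn3 were called against WT mice only, and Atp1b1 against Het-cKO mice only, and a difference between the comparisons was not tested. Both the WT mice and the Het-cKO mice were of the 02xx range. Between 9 and 13 members were called when any 1 mouse was left out, beside 660 to 944 genes in all.

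Between Het-cKO and WT mice, which share the number range and differ in Cre, none of the 22 members was called by edgeR, and neither was any other gene (0% of all genes). At an unadjusted p below 0.05 there was 1 member, Rbfox3 (log2 fold change -1.40, adjusted p = 0.62), and 998 genes in all. DESeq2 and limma-voom also called 0. The members' median log2 fold change was -0.15, with 16 of 22 negative. Gad1 (-1.77), Nrsn1 (-0.84) and Cplx1 (-0.69) had negative estimates, with adjusted p-values of 0.67 to 0.79.

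The difference between Homo-cKO and WT mice was also compared between the sexes. No member had a genotype by sex interaction, by edgeR or by limma-voom, and 0% of all genes did. At an unadjusted p below 0.05 there were 0 members by either tool, while 644 genes passed by edgeR and 688 by limma-voom. With 2 WT females this comparison has little precision. For Snap25 the log2 fold change was -2.50 in females and -2.60 in males.

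Within the Homo-cKO mice the animal-number ranges were compared with WT mice separately. With the 6 mice of 03xx, 14 of the 21 members tested were called, where 475 of 12732 genes were called in all. With the 4 mice of 04xx, 9 of the 26 members tested were called, where 327 of 13090 genes were. All of these members were called lower. Snap25 (adjusted p = 0.00061 and 0.0024), Nrgn (0.00064 and 0.020), Cplx2 (0.0023 and 0.018), Nrsn1 (0.016 and 0.028), Uchl1 (0.0024 and 0.049) and Syn1 (0.016 and 0.040) were called with either range, by edgeR. The 4 Homo-cKO mice with high immediate-early genes all belong to 03xx, and their sums over the 37 members (14.2 to 20.7 CPM) overlapped those of the other 6 Homo-cKO mice (17.2 to 28.0 CPM). The part of the immediate-early genes in the members' differences was not tested.

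A second list of 102 neuronal genes, of which 100 were in the table and 39 were tested, gave the surroundings of the members. In Homo-cKO against WT mice, 10 of these 39 were called lower and none higher, with a median log2 fold change of -0.46 and 28 negative. Over all 12908 genes, 1.75% were called lower and 1.65% higher, with a median of 0.01. An excess in this list was not tested. The presynaptic genes among the 10 included Syn2, a second synapsin (-2.61, adjusted p = 0.022), Dnm1, the dynamin of synaptic vesicle retrieval (-2.46, adjusted p = 0.012), and Atp6v1g2, a subunit of the vesicular proton pump (-0.61, adjusted p = 0.046), all by edgeR.

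Genes of other classes called in that list were the postsynaptic Camkv (-2.48, adjusted p = 0.022) and Ppp1r1b, the dopamine-regulated phosphatase inhibitor of striatal neurons (-1.43, adjusted p = 0.012), the axonal motor Kif5a (-2.13, adjusted p = 0.033), Pcp4, a calmodulin regulator (-1.09, adjusted p = 0.035), and Ndrg4 (-2.11 ± 0.32, adjusted p = 0.00028). Ndrg4 was among the better counted, at 2.49 to 13.4 CPM in WT and 0.419 to 4.78 CPM in Homo-cKO mice. The count was 6 without WT F1, where 364 of 13051 genes were called, and 5 without WT M4, where 352 of 13068 were.

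Some markers of other brain cells were also lower in Homo-cKO mice, where 1.75% of all genes were called lower against WT. In the astrocyte list 5 of 15 genes were tested and 1, Aldoc, was called lower, at 6.46 ± 2.71 CPM (SD, n = 6) in WT, 5.16 ± 1.87 (n = 7) in Het-cKO and 2.28 ± 1.52 (n = 10) in Homo-cKO mice (-1.61, adjusted p = 0.0062 by edgeR). The summed list lay between 238 and 274 CPM in WT, 214.4 and 315.5 in Het-cKO and 231.5 and 312.3 in Homo-cKO mice, and was mostly Slc1a3 (0.12, adjusted p = 0.32). Without Slc1a3, a choice made after the values were seen like that of the 3 abundant members, the 14 other genes summed to 7.83 to 27.1 CPM in WT, 8.63 to 25.4 in Het-cKO and 1.96 to 14.5 in Homo-cKO mice. The Homo-cKO mean was 0.458 times the WT mean, beside 0.357 times for the 37 members, and 7 of 10 Homo-cKO mice were below all WT and Het-cKO mice. In the oligodendrocyte list 7 of 12 were tested and 1, Mobp, was called lower (-1.69, adjusted p = 0.022), with sums of 2001 to 2932 CPM in WT, 2119 to 2694 in Het-cKO and 1389 to 2439 in Homo-cKO mice, mostly Trf (-0.33, adjusted p = 0.036, under the fold limit). Without Trf the 11 other genes summed to 181.5 to 254.9 CPM in WT, 185.2 to 229.8 in Het-cKO and 153.0 to 209.4 in Homo-cKO mice, with the Homo-cKO mean 0.866 times the WT mean. Mobp itself was at 7.54 ± 7.03 CPM (SD, n = 6) in WT, 7.54 ± 4.05 (n = 7) in Het-cKO and 2.43 ± 1.32 (n = 10) in Homo-cKO mice. In the endothelial list 3 of 10 were tested and none was called. Under the fold limit, 2 of the 3 had an adjusted p below 0.05 by edgeR. These were the most abundant, Slc2a1 (-0.58, adjusted p = 0.00055), and Pecam1 (-0.49, adjusted p = 0.021). The list had sums of 116 to 186 CPM in WT, 112 to 168 in Het-cKO and 84.3 to 127 in Homo-cKO mice. Its Homo-cKO mean was 0.700 times the WT mean, and Cldn5 was at 0 in all mice. The precursor list of oligodendrocytes had sums of at most 4.26 CPM, and of its 7 genes 1, Olig1, was tested (-0.997, adjusted p = 0.24).

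In the microglial list, 16 of 16 were tested, 1 was called lower (Itgam, -0.61, adjusted p = 0.00079 by edgeR) and 14 were negative. In all, 8 of the 16 had an adjusted p under 0.05, most of them under the fold limit, among them Cx3cr1 (-0.51, adjusted p = 0.00018). Their sums were 81430 to 113200 CPM in WT, 78230 to 100800 in Het-cKO and 72730 to 84810 in Homo-cKO mice. None of the 4 red cell genes or the 5 neutrophil genes tested was called, and the most abundant were Hba-a2 (-0.26, adjusted p = 0.92) and Ngp (1.67, adjusted p = 0.37). Of the immediate-early list, 9 of the 10 tested were called higher in Homo-cKO than in WT mice, led in level by Jun (3.23, adjusted p = 0.0040 by edgeR). The share called higher over all genes was 1.65%. The part of any of these cell types or gene groups in the members' differences was not tested.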

How the data were processed

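Microglial RNA had been made into libraries from low input with the SMARTer Ultra Low v4 kit, which does not mark strand. The authors aligned single-end reads to mm10 (OmicSoft OSA4, Ensembl R84 models), and the deposited values are RSEM expected counts, not normalized. RSEM and DESeq2 are named in the submitters' processing notes, and versions are not given in the sources used here. Of the values, 82.2% were whole, and all were rounded. A labelled WT female and a labelled Het-cKO male have no column and were not analysed here. The paper states that a WT female sample and a heterozygous male sample were removed. Few of their reads mapped uniquely, duplication was high, and both were outliers in its principal component analysis.

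Symbols and coordinates came from GENCODE M21 (GRCm38), which matched 42929 of 43411 identifiers, and 482 were not matched. Genes were filtered with filterByExpr (a minimum count of 10, genotype as the group), scaled by TMM and tested with edgeR 4.0.16 in R 4.3.3 (quasi-likelihood test, genotype and sex, all 23 mice, Benjamini-Hochberg over all genes tested). A call needs an adjusted p under 0.05 with more than a 1.5-fold difference. Standard errors were derived as the log2 fold change over the root of the F statistic. CPM is on TMM-scaled totals. Total counts of 10812969 to 16734846 leave members below 1 CPM with few counts, and limits from a count of 0 cover counting error only. Single mice are separate animals, and the spread between them is the error used.

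Alternatives were DESeq2 1.42.0, limma-voom (limma 3.58.1), RLE factors, library totals, other filters, no sex term, only the groups compared, robust estimation, no fold limit, each mouse left out, and each Homo-cKO number range alone. Other choices were added after the data were seen, namely leaving out 4 Homo-cKO mice, leaving out 2 WT mice, and summing without Basp1, Vamp2 and Ncdn, with the glial sums without Slc1a3 or Trf beside them. The tests were tested on simulated data first. Members and lists were chosen with earlier results of these data known. The text names all 40 members, from the second neuronal list the genes called (at most 10 falls and 5 rises), from each marker list the gene of highest mean and called genes (at most 3), and Bin1. Some genes that this rule names are not reported here. Cx3cr1, Cldn5, Pecam1 and single mice were named after their values were seen. The 9 called immediate-early genes are given as a count. Promoters came from RefSeq (GRCm38.p6). Plots were made in matplotlib 3.10.9 (Python 3.11.15).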

Additional observations from a re-analysis of the deposited data

Results flagged for a closer look

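A single mouse stood far from the rest of its group in 4 of the 66 sets of member values examined (22 members in 3 genotypes) by Dixon's test on log2 CPM, of which chance alone flags about 1 in 20. In Het-cKO M1, Camk2a was at 1.70 CPM, where the next Het-cKO mouse was at 3.51. The same mouse had 0 CPM of Atp1b1, where the next was at 0.962. Het-cKO F4 had 0 CPM of Chn1, where the next was at 1.35. Homo-cKO M5 had 3.26 CPM of Olfm1, where the next highest Homo-cKO mouse was at 1.39, and without this mouse Olfm1 was called lower in Homo-cKO than in WT mice (adjusted p = 0.016 by edgeR).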

How the results depend on the processing

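Members called in Homo-cKO against WT numbered 13 by edgeR, 14 by DESeq2 and 12 by limma-voom, and between 9 and 16 under the other planned settings that kept all WT mice. Of all 12908 genes, DESeq2 called 513 and limma-voom 498. The 9 arose with only the 2 groups compared (368 of 12480 genes called) and with 04xx alone (327 of 13090). The 16 arose with no filter (543 of 24758). Leaving out 1 mouse at a time gave 6 to 14, with 6 only without WT F1, and 334 to 474 genes in all. Without the 2 WT mice F1 and M4 there were 6 of 25 tested (255 of 13270 genes). Without the 4 Homo-cKO mice with high immediate-early genes there were 8 of 22 (321 of 12735 genes). Against Het-cKO mice, where 12 were called, the fits that left out 1 mouse gave 9 to 13 (660 to 944 genes in all). The 04xx mice alone gave 6 (542 of 13090 genes), the fit without the 4 Homo-cKO mice 7 (505 of 12735), and no filter 18 (993 of 24758). Het-cKO against WT gave 0 members in each setting run.

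In the second neuronal list, 10 genes were called, against 4 with only the 2 groups compared, 4 with 04xx mice alone, 3 without the 4 Homo-cKO mice, 3 without the 2 WT mice, and 5 to 12 with 1 mouse left out. Calls over all genes in those fits, in the same order, were 368 of 12480, 327 of 13090, 321 of 12735, 255 of 13270 and 334 to 474. The cause of these shifts was not tested, and those fits also held fewer mice. No call of a member changed its sign. Het-cKO members present numbered 16 at 1 CPM, 25 at 0.5 CPM and 9 at 2 CPM.

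The summed level of the 40 members was 0.915 times WT in Homo-cKO and 1.04 times WT in Het-cKO mice, and leaving out 1 mouse gave 0.890 to 0.940 and 1.01 to 1.06. The mean log2 CPM of tested members gave ratios of 0.370 and 0.833, the sum without Basp1, Vamp2 and Ncdn 0.357 and 0.912, and that sum without WT F1 and M4 0.471 and 1.20. No paired analysis was possible because the labels give no shared replicate numbers. Depth limits the members below 1 CPM.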
